A study of Mus musculus with 32 samples.

Results

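The 10 genes described here are Rgs5, Notch3, Cspg4, Itga8, Kcnj8, Abcc9, Cox4i2, Ndufa4l2, Higd1b and Trpc6, which are known as markers of pericytes. They were found by gene name among 46165 gene records, of which 18853 had an exon read in at least 1 library. All 10 had reads in every library and passed the filter on low counts at both ages. Pericytes are the cells that wrap around capillaries inside the vessel's basement membrane. They are drawn to new vessels by platelet-derived growth factor from the endothelium, need Notch signalling to mature, and set capillary tone through cyclic nucleotides and potassium channels. Some of these genes are also made by other lung cells, Itga8 by fibroblasts and Notch3 and Trpc6 by smooth muscle, so a whole-lung value is not that of pericytes alone. In the newborn lung pericytes take part in building the capillary bed of the growing airspace walls.

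The study measured what control injections and vehicles do to gene expression in the lungs of C57BL/6 mouse pups, with 32 libraries of polyadenylated RNA from whole perfused lung, 4 in each of 8 groups. At postnatal day 6 there were 3 groups, injected into the peritoneum on days 1 and 2: 25 µl of saline, 25 µl of Miglyol, an oil used as a vehicle, and 0.4 mg of tamoxifen in 25 µl of Miglyol. Tamoxifen is an oestrogen receptor ligand that is widely used to activate inducible Cre recombinases. The 5 groups taken at postnatal day 14 were left untreated, received daily saline into the peritoneum over days 1 to 13 at 25 µl per g, or received 10 µl per g of nuclease-free water, scrambled 1 or scrambled 2. These are locked nucleic acid oligonucleotides of scrambled sequence that serve as controls for microRNA inhibitors, at 10 mg per kg dissolved in that water, and all of the last 3 were injected on days 1 and 3. No genotype or transgene is named in the labels. Day 6 pups were killed with pentobarbital and day 14 pups with isoflurane, so the 2 ages differ in anaesthetic as well as in treatment.

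The libraries held 7918537 to 12443221 exon reads and 16211 to 16834 genes with reads. The scarcest member in any library was Rgs5, with 101 exon reads. The share of gene reads that lay in introns, a property of the RNA and the library, ran from 8.61% to 16.02% over all libraries. At day 6 it was 13.9% to 16.02% after saline, 11.4% to 14.2% after Miglyol and 11.7% to 14.9% after tamoxifen. Libraries with high Xist, an RNA made from the inactive X, numbered 2 of 4 in every day 6 group, but 3 in the untreated, 2 in the daily saline and scrambled 1, 1 in the scrambled 2 and 0 in the water group at day 14. Water replicate 3 stood apart in genes of neighbouring tissue, with 337 CPM summed over 8 skeletal muscle genes against 5.51 to 9.64 CPM in the other water libraries. CPM values are a gene's exon reads scaled to library size by the TMM method. Nothing in the labels ties each library to a separate animal, so p-values measure the spread between these libraries, which may be technical in part. In bulk lung, fewer cells of a type and less RNA per cell cannot be told apart.

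The promoters of 4 members that passed in a day 6 comparison are shown first, so that the counts can be set beside the sequence. RefSeq windows of 300 bases (250 before and 50 after a transcription start, GRCm38.p6) were found for 7 of the 10 genes. They were searched on both strands for TGGGAA, a core bound by the Notch partner RBPJ, for ACGTG, the core of hypoxia response elements, and for the CArG box, the site of serum response factor in contractile genes. No base of one match lay in another. The 250 bases before the start and the first 30 after it are printed 5′ to 3′ on the gene's own strand, with motif matches in capitals. Rgs5 had the largest change of the members, Kcnj8 and Abcc9 encode 2 subunits of 1 channel, and Notch3 is the receptor of the set.
Rgs5 promoter, chr1:169655251-169655530, plus strand: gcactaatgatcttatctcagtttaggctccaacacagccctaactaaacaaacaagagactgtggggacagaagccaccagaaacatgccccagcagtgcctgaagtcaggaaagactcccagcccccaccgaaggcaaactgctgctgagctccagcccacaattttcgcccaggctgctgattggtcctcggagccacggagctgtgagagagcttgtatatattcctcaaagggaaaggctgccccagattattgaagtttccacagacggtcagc
Kcnj8 promoter, chr6:142571585-142571864, minus strand: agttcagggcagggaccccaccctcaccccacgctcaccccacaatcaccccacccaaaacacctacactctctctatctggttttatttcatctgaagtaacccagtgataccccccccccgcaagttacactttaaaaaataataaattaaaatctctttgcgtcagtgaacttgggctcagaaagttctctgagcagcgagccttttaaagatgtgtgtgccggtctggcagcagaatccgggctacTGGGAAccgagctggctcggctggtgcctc
Abcc9 promoter, chr6:142702245-142702524, minus strand: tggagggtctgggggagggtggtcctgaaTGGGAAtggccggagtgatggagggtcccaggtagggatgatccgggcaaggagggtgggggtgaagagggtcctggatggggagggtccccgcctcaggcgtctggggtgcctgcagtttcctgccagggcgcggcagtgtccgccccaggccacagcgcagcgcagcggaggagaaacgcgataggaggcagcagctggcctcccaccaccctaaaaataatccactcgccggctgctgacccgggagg
Notch3 promoter, chr17:32166861-32167140, minus strand: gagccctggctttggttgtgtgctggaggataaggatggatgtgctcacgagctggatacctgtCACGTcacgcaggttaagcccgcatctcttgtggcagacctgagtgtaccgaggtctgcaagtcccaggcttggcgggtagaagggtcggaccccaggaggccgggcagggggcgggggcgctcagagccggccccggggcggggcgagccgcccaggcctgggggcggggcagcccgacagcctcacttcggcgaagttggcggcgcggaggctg

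None of the 3 motifs was found in the windows of Rgs5, Itga8 or Cspg4. Kcnj8 had 1 TGGGAA, beginning at the first base after the RefSeq start, and Abcc9 had 1 at 221 bases before the start of its window. The whole Abcc9 window, with 142702524 as its highest base, lies inside the RefSeq gene, which reaches base 142702766 on this minus strand. Its start is thus not the outermost one of the gene. Notch3 had 2 ACGTG matches, the first (on the other strand, CACGT) 186 bases before the start and the second 38 bases after the RefSeq start, beyond the stretch shown. The last 25 bases of the Notch3 window, unlike those of the other 6, were not found in a GENCODE transcript of the gene. Trpc6 had ACGTG 94 bases before the start of its window and the only CArG box of the set, CCTTTAAAGG, at 122 bases before it. That window begins at base 8543892, inside the RefSeq gene, which begins at base 8543867, so both matches lie inside the gene. Among 32851 such mouse windows TGGGAA was present in 25.6%, ACGTG in 19.6% and a CArG box in 1.63%. The 2 channel subunit genes thus shared TGGGAA with 25.6% of all windows. The window of Rgs5 was 52.3% G and C with 6 CG pairs, close to the median window (52.7% and 7 pairs), while that of Notch3 was 70.0% G and C with 25 CG pairs.

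Levels can be compared between genes only per length of transcript, for which the TPM values of the authors were used, as means over 32 libraries with the SD across all of them. Cox4i2, a lung-enriched isoform of subunit 4 of cytochrome c oxidase, stood highest at 166 ± 34.0 TPM. Itga8, the integrin subunit that pairs with beta 1 to bind nephronectin and other matrix proteins, followed at 112 ± 33.2 TPM, and Ndufa4l2, a mitochondrial protein induced by hypoxia, at 84.1 ± 12.0 TPM. The receptor Notch3 stood at 58.3 ± 7.40 TPM, Higd1b, of the HIG1 domain family of mitochondrial proteins, at 53.7 ± 5.14 TPM, and Rgs5, a brake on G protein signalling, at 31.3 ± 8.55 TPM. Lowest were Trpc6, a calcium-permeable channel (23.1 ± 2.74), Kcnj8, the Kir6.1 pore of the vascular ATP-sensitive potassium channel (18.6 ± 2.59), Cspg4, the NG2 proteoglycan (14.4 ± 1.77), and Abcc9, that channel's SUR2 regulatory subunit (9.99 ± 2.08 TPM). The 2 channel genes are neighbours on chromosome 6, both on the minus strand and 16214 bases apart. Of the reads counted for Cox4i2 49.9% were unique, for Notch3 64.6% and for Trpc6 64.7%, and for the other 7 members at least 96.6%, so the levels of those 3 genes include reads that may belong elsewhere.

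Over the 8 groups, the mean of Rgs5 varied 2.25-fold and that of Itga8 2.21-fold, while those of Higd1b, Trpc6, Cspg4 and Notch3 varied 1.14-fold, 1.17-fold, 1.24-fold and 1.26-fold. Abcc9 varied 1.73-fold, Cox4i2 1.66-fold, Kcnj8 1.52-fold and Ndufa4l2 1.47-fold. With the groups put in order of their means, neighbouring groups overlapped in range for Rgs5, Notch3, Cspg4, Abcc9, Cox4i2, Ndufa4l2, Higd1b and Trpc6. For Itga8 there were breaks between scrambled 1 and the day 6 saline group and between saline and tamoxifen, and for Kcnj8 between Miglyol and saline.

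**Figure D1:**
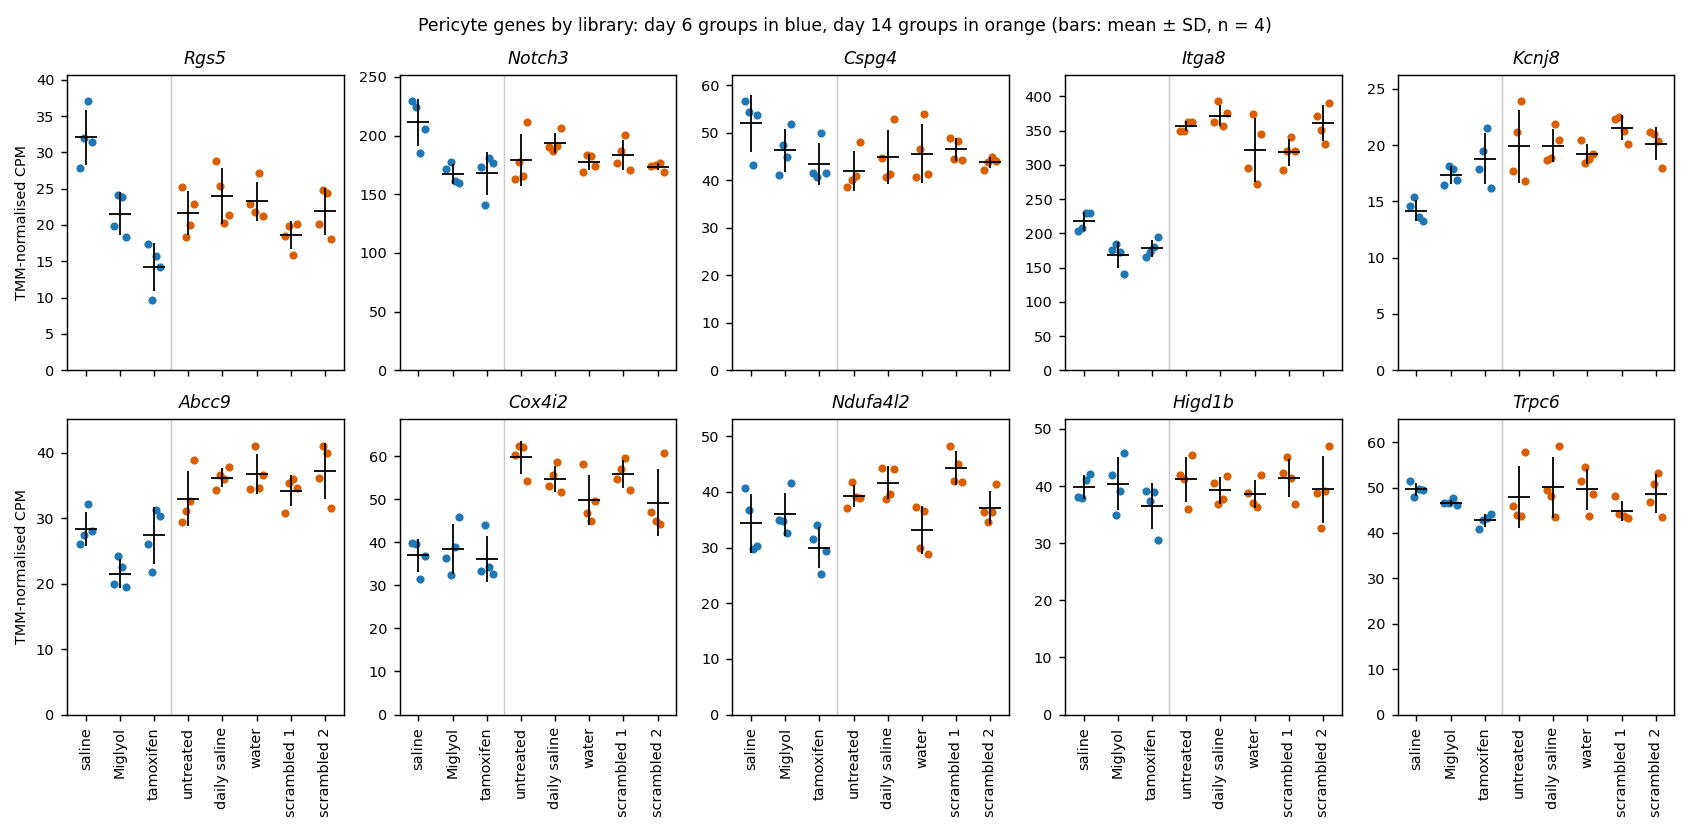
TMM-normalised CPM of each member (vertical axes, starting at 0) in every library, by group, with day 6 in blue and day 14 in orange; black bars are the mean ± SD of 4 libraries. Rgs5 steps down from saline to Miglyol to tamoxifen at day 6 without overlap, and Itga8 separates the ages completely.

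Miglyol was set against saline at day 6 to ask what the oil does on its own. Of the 10 members, 4 fell and none rose past an adjusted p of 0.05, namely Rgs5, Notch3, Itga8 and Abcc9. Over all 14107 genes tested 10.6% changed and 7.29% fell. The members' median log2 fold change was -0.13 against 0.022 over all genes. In the saline lungs Rgs5 stood at 27.9, 32.0, 37.0 and 31.4 CPM and in the Miglyol lungs at 19.8, 24.2, 23.9 and 18.3 CPM. Every saline library was above every Miglyol library. The means were 32.1 ± 3.76 and 21.6 ± 2.93 CPM (SD, n = 4 here and below), a log2 fold change of -0.58 (SE 0.139, edgeR with Benjamini-Hochberg adjusted p = 0.0188). The Rgs5 protein speeds the return of G protein alpha subunits to rest, and its gene is one of the most used pericyte markers.

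Notch3 is the Notch receptor of mural cells. Its saline libraries read 229, 224, 186 and 206 CPM and its Miglyol libraries 172, 177, 162 and 159 CPM, with no overlap (log2 fold change -0.34, SE 0.0790, edgeR adjusted p = 0.0157). Itga8 stood at 204, 207, 229.5 and 229.7 CPM after saline and 176, 185, 172 and 141 CPM after Miglyol. Its groups did not overlap either, and Miglyol replicate 4 was the lowest of all 32 libraries (log2 fold change -0.37, SE 0.0786, edgeR adjusted p = 0.0112).

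The 2 subunits of the vascular potassium channel had changes of opposite sign, of which only that of Abcc9 passed. Abcc9 was 26.0, 27.4, 32.1 and 28.1 CPM after saline and 19.98, 24.2, 22.6 and 19.5 CPM after Miglyol, lower in every Miglyol library (log2 fold change -0.41, SE 0.113, edgeR adjusted p = 0.0299). Kcnj8 was 14.6, 15.4, 13.6 and 13.2 CPM after saline and 16.5, 18.1, 17.9 and 16.9 CPM after Miglyol. All 4 Miglyol libraries of Kcnj8 were above all 4 saline libraries, but the difference missed the threshold (log2 fold change 0.29, SE 0.102, edgeR adjusted p = 0.0753). The remaining 5 members, Cspg4, Cox4i2, Ndufa4l2, Higd1b and Trpc6, had log2 fold changes between -0.17 and 0.066. Miglyol and saline ranges overlapped in Cspg4, Cox4i2, Ndufa4l2 and Higd1b, while those of Trpc6 (46.1 to 47.6 against 48.0 to 51.4 CPM) did not. How many of all genes separate in this way was not counted. An unadjusted p under 0.05 by edgeR was found for 5 members and for 4182 of all 14107 genes. On unique reads alone Trpc6 passed, at -0.25 (edgeR adjusted p = 0.0417), against -0.094 on all exon reads.

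Beside these falls, the share of intronic reads was lower after Miglyol (11.4% to 14.2%) than after saline (13.9% to 16.02%), with an overlap of the ranges. With that share as a covariate, an alternative added after the data were seen, 0 of 10 members and 2 genes in all passed, against 1498 without it. Because the share differed between the 2 groups, that fit cannot tell the oil from the share. All 4 members kept the sign: Rgs5 was at -0.33 (edgeR adjusted p = 0.400), Notch3 at -0.28, Itga8 at -0.21 and Abcc9 at -0.17. With 1 library left out at a time, the number of members called ran from 1 to 4. The call of Itga8 held in all 8 such fits, that of Rgs5 was lost without Miglyol replicate 1 or 4 or saline replicate 3 or 4, and that of Notch3 without Miglyol replicate 3 or 4. The call of Abcc9 was kept only without Miglyol replicate 2 or saline replicate 1. DESeq2 called the same number, 4.

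Tamoxifen in Miglyol was set against Miglyol alone to separate the drug from its vehicle. Rgs5 was the only member that passed, and it fell, where 5.68% of all genes changed and 1.96% fell. Its tamoxifen libraries read 17.4, 9.71, 15.8 and 14.2 CPM, all below the lowest Miglyol library at 18.3 CPM. The tamoxifen mean was 14.3 ± 3.30 CPM and the log2 fold change from Miglyol was -0.59 (SE 0.147, edgeR adjusted p = 0.0243). With the intron share as a covariate it was -0.61 (edgeR adjusted p = 0.00287). The call was lost without Miglyol replicate 2 and without Miglyol replicate 3, and with only the 8 libraries compared in the fit no member passed.

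Notch3 and Itga8, lower after Miglyol than after saline, stood after tamoxifen at 173, 140.4, 181 and 177 CPM and at 166, 173, 179 and 195 CPM. Both overlapped their Miglyol ranges, with log2 fold changes of 0.0058 (SE 0.0791) and 0.088 (SE 0.0786). Abcc9 was 26.0, 21.7, 31.3 and 30.4 CPM after tamoxifen, above the highest Miglyol library in 3 of 4 libraries. Its log2 fold change of 0.35 (SE 0.112) had an edgeR adjusted p of 0.0733, and without tamoxifen replicate 2 it passed at 0.45 (edgeR adjusted p = 0.0106). The median log2 fold change of the 10 members was -0.086, against -0.0044 over all genes.

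Against saline, tamoxifen in Miglyol combined both steps, and this comparison shares its libraries with the other 2. Here 4 members fell and 1 rose, where 23.7% of all genes changed, 12.3% lower and 11.3% higher. Rgs5 had the largest fall of the members, by 1.17 on the log2 scale (SE 0.145, edgeR adjusted p = 6.85e-05), so that it fell by 55.6%. Notch3 was at -0.33 (SE 0.0790, edgeR adjusted p = 0.00636) and Itga8 at -0.29 (SE 0.0785, edgeR adjusted p = 0.0142), neither overlapping saline. The call of Itga8 was lost without saline replicate 3 (edgeR adjusted p = 0.0516) or replicate 4 (0.0539).

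Trpc6, which admits calcium on receptor stimulation in smooth muscle and pericytes, had one of the narrowest spreads of the set. It stood at 51.4, 48.0, 49.8 and 49.5 CPM after saline, 46.5, 46.5, 47.6 and 46.1 CPM after Miglyol and 40.8, 42.8, 43.4 and 44.1 CPM after tamoxifen. The 3 groups did not overlap, and the change from saline to tamoxifen was -0.22 (SE 0.0592, edgeR adjusted p = 0.0141). Kcnj8 was the member that rose, at 17.9, 19.5, 21.5 and 16.2 CPM after tamoxifen, all above saline (log2 fold change 0.41, SE 0.101, edgeR adjusted p = 0.00807). Cspg4, the NG2 proteoglycan of the pericyte surface, lay between 40.7 and 50.01 CPM after tamoxifen and between 43.3 and 56.6 CPM after saline. Its log2 fold change of -0.26 (SE 0.0930) had an edgeR adjusted p of 0.0513, and it passed in DESeq2 (0.0497), as in some other fits. With the intron share as a covariate 3 members passed, of which Rgs5 at -0.94 (edgeR adjusted p = 0.000529) was the only one of the former 5. Over all genes 1201 passed in that fit, against 3343 without the covariate. The other 2 were Cox4i2 at -0.30 and Ndufa4l2 at -0.38, while Notch3, Itga8, Kcnj8 and Trpc6 kept their signs and missed the threshold.

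**Figure D2:**
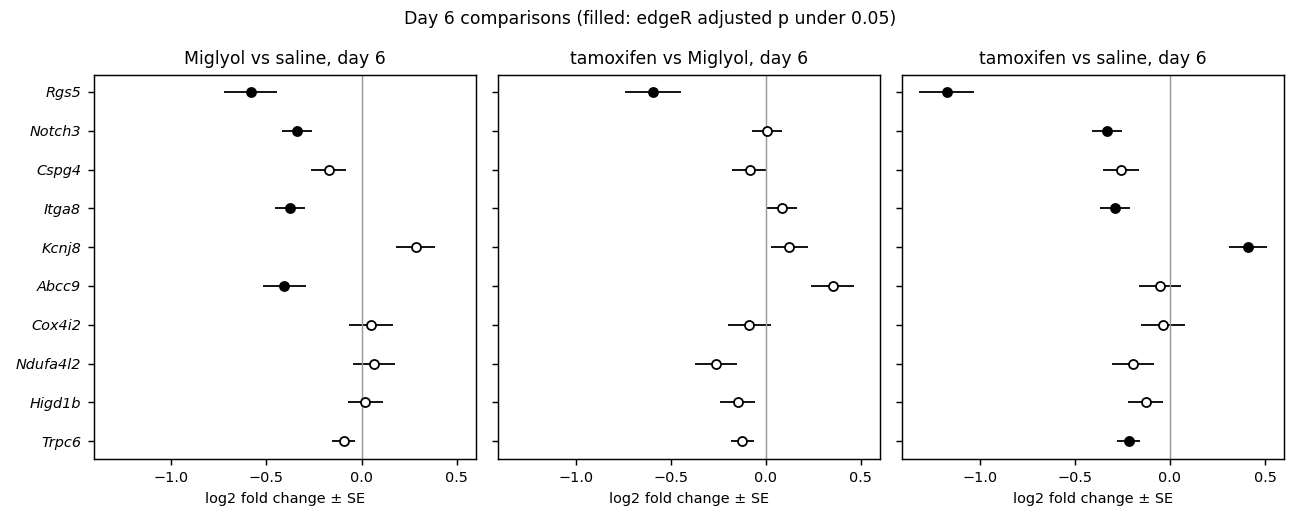
edgeR log2 fold change ± SE of each member (horizontal axis) in the 3 day 6 comparisons, 4 libraries per group; filled points have an adjusted p under 0.05. Rgs5 lies at -0.58, -0.59 and -1.17, whereas Notch3 and Itga8 lie below 0 against saline and near 0 between tamoxifen and Miglyol.

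Because Kcnj8 and Abcc9 encode the pore and the regulatory subunit of 1 channel, their ratio was taken within each library, which removes library size. This pair was chosen after its values were seen. The log2 ratio of Kcnj8 to Abcc9 CPM was -0.84, -0.83, -1.24 and -1.08 after saline, -0.28, -0.42, -0.33 and -0.21 after Miglyol and -0.54, -0.15, -0.54 and -0.91 after tamoxifen. The saline and Miglyol libraries did not overlap, and tamoxifen overlapped both. Every Miglyol library was already below every saline library in Abcc9 and above every saline library in Kcnj8, so their ratio had to separate. The permutation p for Miglyol against saline was therefore fixed at its minimum by those values and adds no evidence to them. The difference between Miglyol and saline was 0.69 (two-sided exact permutation p = 0.0286, the smallest that 4 against 4 allows, Benjamini-Hochberg adjusted p = 0.0857 over the 3 comparisons). The intron share differed between these groups. With group means taken from both, over the 12 day 6 libraries the share went with Abcc9 (r = 0.81) and against Kcnj8 (r = -0.37). These correlations thus leave out the difference between groups. With the share as a covariate Abcc9 was at -0.17 and Kcnj8 at 0.21 between Miglyol and saline. The difference in log2 ratio was -0.23 for tamoxifen against Miglyol (exact permutation p = 0.257) and 0.46 for tamoxifen against saline (exact permutation p = 0.0857, adjusted p = 0.129). At day 14 the group means lay between -0.93 and -0.66, and untreated replicate 4 was the lowest of those libraries at -1.21.

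**Figure D3:**
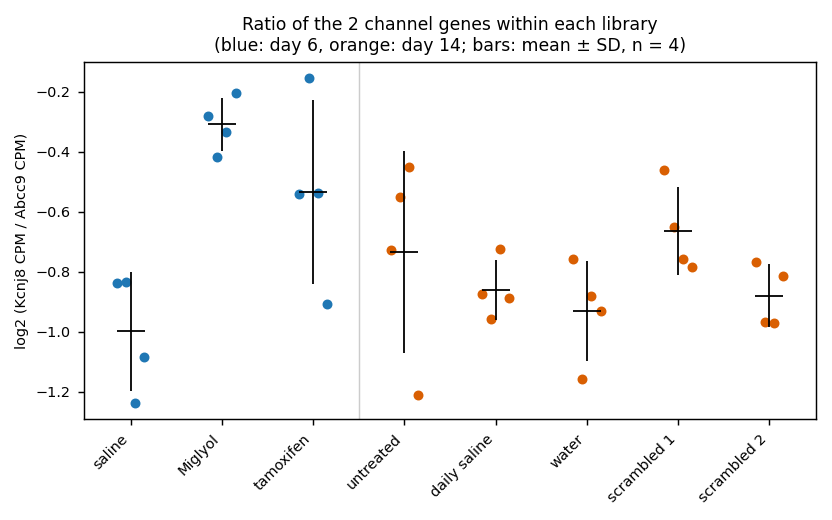
log2 ratio of Kcnj8 CPM to Abcc9 CPM (vertical axis) in each library, by group, with day 6 in blue and day 14 in orange; bars are the mean ± SD of 4 libraries. The Miglyol libraries, at -0.42 to -0.21, lie above all saline libraries, at -1.24 to -0.83.

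Other genes of pericytes and mural cells were read from a list of 24. In Miglyol against saline 5 of them fell and none rose, where 7.29% of all genes fell. With the intron share as a covariate 2 of all 14107 genes passed in that comparison, so at most 2 of the Miglyol against saline calls given here and below for other lists are kept with it. The 5 that fell included Pdgfrb, the receptor through which pericytes are recruited (-0.22, SE 0.0538, edgeR adjusted p = 0.0197). Among them were also Pde5a, which degrades cyclic GMP (-0.24, SE 0.0612), and Heyl, a Notch target (-0.34, SE 0.0873). In tamoxifen against Miglyol 3 fell and 1 rose, where 5.68% of all genes changed and 1.96% fell. Those that fell were the subunits of soluble guanylate cyclase Gucy1a3 (-0.31, SE 0.0559) and Gucy1b3 (-0.27, SE 0.0560) and the connexin Gja4 (-0.52, SE 0.103). The gene that rose was Steap4, a metalloreductase (0.99, SE 0.164). The summed level of the 24 genes was 6152 to 6454 CPM after saline, 5752 to 6057 CPM after Miglyol and 5378 to 5664 CPM after tamoxifen, with no overlap between these groups. The median log2 fold change of the list was -0.061 and -0.075 in the 2 comparisons, beside 0.022 and -0.0044 over all genes.

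The counts of the next lists stand beside shares over all genes. After Miglyol 10.6% changed and 7.29% fell, and between tamoxifen and Miglyol 5.68% changed and 1.96% fell. Heyl, Pdgfrb, Notch1 and Notch2 are each counted in more than 1 list. In a list of 14 further Notch pathway genes 3 fell after Miglyol, Notch1 (-0.34, SE 0.0739), Notch2 (-0.28, SE 0.0761) and Heyl, and none rose. Between tamoxifen and Miglyol only the ligand Dll1 passed, rising by 0.53 (SE 0.0985). Of 12 genes by which endothelium recruits pericytes, Pdgfrb and Tgfbr2, a receptor for TGF-beta (-0.23, SE 0.0655), fell after Miglyol. Between tamoxifen and Miglyol Tgfbr2 rose by 0.23 (SE 0.0654) and the N-cadherin gene Cdh2 fell by 0.31 (SE 0.0710). Of 14 relatives of the members, Notch1 and Notch2 fell and Ndufa4, the common counterpart of Ndufa4l2, rose after Miglyol (0.26, SE 0.0762). Rgs16, a relative of Rgs5, rose after tamoxifen against Miglyol by 0.51 (SE 0.138), opposite in sign to Rgs5. In 14 hypoxia response genes, 1 fell after Miglyol, Epas1 (-0.32, SE 0.0700), and 1 rose between tamoxifen and Miglyol, the glucose transporter Slc2a1 (0.45, SE 0.101).

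Some markers of other lung cells moved in the same comparisons. After Miglyol 2 of 11 smooth muscle genes fell (Myh11 at -0.31 and Mylk at -0.30), while 6 of the 11 lay above 0. Of 10 endothelial genes 2 fell (Cdh5 at -0.27 and Erg at -0.21). Of 10 fibroblast genes 3 fell (Fn1 at -0.48, Pdgfra at -0.33 and Npnt at -0.23). Of 6 epithelial genes 2 rose (Scgb1a1 and Sftpc, both at 0.32). Over all genes 10.6% changed and 7.29% fell. The median log2 fold changes of these 4 lists were 0.059, -0.090, -0.080 and 0.21 in that order, beside 0.022 over all genes. The summed epithelial level was 14077 to 15301 CPM after saline, 16146 to 20162 CPM after Miglyol and 18495 to 21052 CPM after tamoxifen. Summed endothelial genes were at 3476 to 3660, 3273 to 3573 and 3263 to 3474 CPM in the same order. Smooth muscle genes summed to 2512 to 2709, 2421 to 2661 and 2284 to 2896 CPM, and fibroblast genes to 7658 to 8665, 6555 to 7674 and 6548 to 8098 CPM. None of these markers was at 0 in all 32 libraries, but Pln of the smooth muscle list stayed under 1 CPM in each. The part of these markers in the falls of the pericyte genes was not tested.

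Between day 14 and day 6, averaged over the 5 and the 3 groups, 5 members rose and none fell, where 61.4% of all 14406 genes changed and 30% rose. No treatment was given at both ages and the anaesthetic differed, so age cannot be told apart from these. Itga8 ran from 141 to 230 CPM with a median of 182 at day 6 and from 272 to 393 CPM with a median of 351 at day 14, with no overlap (log2 fold change 0.88, SE 0.0423, edgeR adjusted p = 3.31e-19). Cox4i2 ran from 31.5 to 46.0 CPM (median 36.7) at day 6 and from 44.1 to 62.4 CPM (median 54.4) at day 14, overlapping slightly (0.53, SE 0.0551, edgeR adjusted p = 3.94e-10). Abcc9 rose by 0.47 (SE 0.0531), Kcnj8 by 0.27 (SE 0.0498) and Ndufa4l2 by 0.22 (SE 0.0514), each with overlapping ranges.

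Rgs5 and Notch3 had log2 fold changes of 0.026 (SE 0.0726) and 0.0028 (SE 0.0387) in that comparison. Both had another value when 1 group was taken from each age. With untreated day 14 lungs set against saline day 6 lungs alone, Rgs5 was lower at day 14 by -0.58 (SE 0.106, edgeR adjusted p = 0.000281), Notch3 by -0.24 (adjusted p = 0.0369) and Cspg4 by -0.31 (adjusted p = 0.0102). Untreated Rgs5 libraries read 25.2, 18.4, 19.97 and 22.9 CPM, all under the lowest saline library. The day 6 saline group, unlike the untreated lungs, was injected, and it had the highest mean of the 8 groups in Rgs5, Notch3 and Cspg4. In the same pair of groups the rises of Abcc9 (adjusted p = 0.0859) and Ndufa4l2 (adjusted p = 0.117) missed the threshold, while those of Itga8, Cox4i2 and Kcnj8 passed. Higd1b (0.037, SE 0.0480) and Trpc6 (0.058, SE 0.0428) did not pass between the ages.

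**Figure D4:**
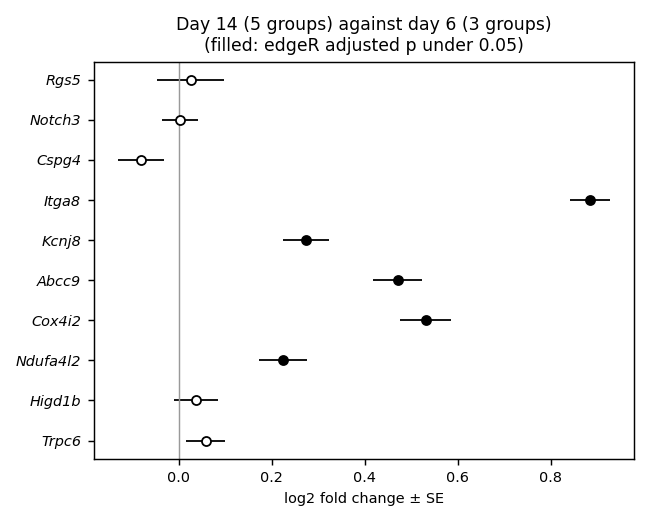
edgeR log2 fold change ± SE of each member (horizontal axis) between the mean of the 5 day 14 groups (20 libraries) and the mean of the 3 day 6 groups (12 libraries); filled points have an adjusted p under 0.05. Itga8 lies farthest from 0 at 0.88, and Rgs5, Notch3, Cspg4, Higd1b and Trpc6 lie within 0.1 of it.

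Of the 24 other pericyte and mural genes 17 rose and 5 fell between the ages, with a median of 0.27. Over all genes 61.4% changed, 30% rose and the median was -0.0057, and the counts of the further lists stand beside the same shares. Pdgfrb rose by 0.58 (SE 0.0299), Heyl by 0.54 (SE 0.0364), Art3, a surface ADP-ribosyltransferase family gene, by 1.06 (SE 0.0603) and Vtn, which encodes vitronectin, by 1.29 (SE 0.0962). Gjc1, a connexin, fell by 0.60 (SE 0.0382), the aminopeptidase gene Enpep by 0.52 (SE 0.0392) and Mcam, the CD146 adhesion molecule, by 0.20 (SE 0.0249). All 10 endothelial genes rose (median 0.45), and of 12 recruitment genes 9 rose and 1 fell. Smooth muscle genes split as 2 higher and 6 lower, with Acta2 at -0.65 (SE 0.0619). Among the relatives of the members Rgs4 rose by 0.87 (SE 0.0615). Kcnj11, which encodes another ATP-sensitive channel pore, was at -1.18 (SE 0.226), opposite in sign to Kcnj8. Its values were imprecise, with an SE of 0.488 in water against untreated lungs, where that of Kcnj8 was 0.0958. Abcc8, which encodes the other regulatory subunit, did not pass the filter on low counts at day 14. No age change is given for it, since it entered that fit through the day 6 libraries. Of 14 hypoxia response genes 5 rose and 5 fell.

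Among the day 14 groups Ndufa4l2 was the only member past the threshold in any comparison by edgeR. Between daily saline and untreated lungs none of the 10 members passed (0.233% of all genes did), and none had an unadjusted p under 0.05, as against 1310 genes in all. In water against untreated none passed either (0.0494% of all genes did), and 2 members, Cox4i2 at -0.26 (SE 0.0876) and Ndufa4l2 at -0.24 (SE 0.0832), had an unadjusted p under 0.05. So did 1147 of all 14179 genes tested. DESeq2 called no member in either comparison.

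Ndufa4l2 restrains mitochondrial respiration in low oxygen and is induced by hypoxia-inducible factor. Its libraries read 37.3, 29.9, 36.6 and 28.9 CPM after water, 44.3, 38.7, 39.6 and 44.1 CPM after daily saline, and 48.3, 42.0, 45.0 and 41.7 CPM after scrambled 1. Both of the latter groups lay above all water libraries. Daily saline exceeded water by 0.33 (SE 0.0827, edgeR adjusted p = 0.0339), 1 member of 10 where 2.74% of all genes changed and 1.04% rose. Scrambled 1 exceeded water by 0.41 (SE 0.0823, edgeR adjusted p = 0.0338), again 1 of 10, where 0.12% of all genes changed and 0.0917% rose. The 2 comparisons share the water libraries. Untreated libraries, at 37.1, 41.8, 39.2 and 39 CPM, overlapped the ranges of all 3 of these groups.

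With 1 library left out, the call of Ndufa4l2 for daily saline was kept only without water replicate 1 or 3, and for scrambled 1 only without water replicate 1 or 3 or scrambled 1 replicate 2. Its adjusted p reached 0.112 and 0.17 in these fits. The 2 comparisons also carry differences between the groups in Xist (0 of 4 water libraries high) and in intron share (8.61% to 11.1% in daily saline against 12.8% to 15.99% in water). With the intron share as a covariate the difference for daily saline was 0.22 (edgeR adjusted p = 0.473) and for scrambled 1 0.41 (edgeR adjusted p = 0.0287). With Xist as a covariate no member passed for scrambled 1.

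In scrambled 2 against water none of the 10 members passed, with 1 at an unadjusted p under 0.05, and edgeR called 0% of all genes. Genes with an unadjusted p under 0.05 numbered 755, and DESeq2 called 5 genes. In scrambled 1 against scrambled 2 none passed (0.205% of all genes did), with 3 members at an unadjusted p under 0.05: Ndufa4l2 at 0.25 (SE 0.0828), Itga8 at -0.18 (SE 0.0755) and Cox4i2 at 0.19 (SE 0.0889). Of all 14179 genes tested 1547 had an unadjusted p under 0.05 there. DESeq2 called no member in either. Without scrambled 2 replicate 4, in which Cox4i2 stood at 60.7 CPM against 44.1 to 47.0 CPM in the other libraries of that group, Cox4i2 passed between the scrambled groups at 0.30 (edgeR adjusted p = 0.0486). Among other pericyte and mural genes 2 of 24 rose in daily saline against water, Ednra, the endothelin receptor (0.24, SE 0.0584), and Heyl (0.21, SE 0.0517). Over all genes 2.74% changed and 1.04% rose in that comparison. With the intron share as a covariate 13 genes in all passed there, against 389 without it. None of the 24 passed in the other 5 day 14 comparisons by edgeR.

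How the members varied together inside groups was described with log2 CPM from which each group's mean had been taken, over 32 libraries. These values share library, depth and intron share, and they have no test. Of 45 pairs, 3 had a Pearson correlation over 0.5 and 4 under -0.5. Notch3 and Cspg4 went together (r = 0.60, rho = 0.54, and 0.56 without the 2 libraries farthest from the median), as did Cox4i2 and Ndufa4l2 (r = 0.53, rho = 0.44, and 0.44 without 2). For Notch3 and Abcc9 r was 0.51 (rho = 0.43) but 0.26 without 2 libraries.

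Rgs5 and Cox4i2 went in opposite directions (r = -0.70, rho = -0.66), at -0.58 over the 20 day 14 libraries and -0.81 over the 12 day 6 libraries, and at -0.63 without 2 libraries. Abcc9 went against Cox4i2 (r = -0.71, rho = -0.63) and against Ndufa4l2 (r = -0.66, rho = -0.65), and Itga8 against Ndufa4l2 (r = -0.59, rho = -0.55). The share of intronic reads went with Abcc9 (r = 0.68), Itga8 (0.60), Notch3 (0.46) and Trpc6 (0.45) and against Cox4i2 (-0.57) and Ndufa4l2 (-0.43). Without the 2 libraries farthest from the median share these were 0.60, 0.59, 0.30, 0.21, -0.55 and -0.44 in that order. At day 6 the share also went with Rgs5 (0.63, against -0.28 at day 14). Its part in the correlations among members was not tested.

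**Figure D5:**
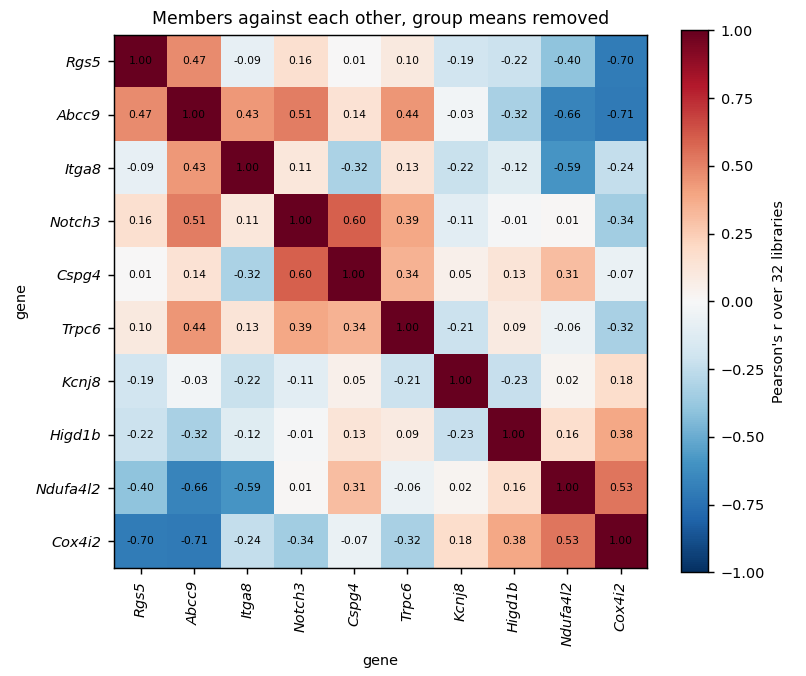
Pearson correlation (colour and printed value, -1 to 1) between each pair of members over 32 libraries, from log2 CPM with group means removed. Cox4i2 and Ndufa4l2 are blue against Abcc9 and, more weakly for Ndufa4l2, against Rgs5, while Notch3 and Cspg4 are red at 0.60.

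The 10 genes did not share 1 pattern within groups: the correlation of each with the mean of all 10 ran from -0.10 for Cox4i2 to 0.77 for Notch3, with Cspg4 at 0.73 and Trpc6 at 0.63. Abcc9 was at 0.42, Higd1b at 0.29, Ndufa4l2 at 0.11, Kcnj8 at 0.087, Rgs5 at 0.049 and Itga8 at 0.030. That mean thus followed some members far more than others. Each gene is itself part of the mean, which raises these values. The genes outside the set most like that mean over the 32 libraries were Col4a2 and Col4a1, the chains of basement membrane collagen (both r = 0.78), followed by Phf12 (0.77), Tmed8 (0.74) and Brd3 (0.69). Hirip3 and Dync1h1, the dynein heavy chain, each had 0.68, and Slc6a6, the taurine transporter, Pcdh1 and Hspg2, which encodes perlecan, each had 0.67. Without water replicate 3 the same 10 genes led.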

How the data were processed

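RNA of whole lung was sequenced in 32 libraries (stranded polyA kit, per the labels' protocols) and read out with bcl2fastq 2.0 according to the submitters' processing notes. Aligner, genome build and strand setting were not given in the sources used here. Per gene record, the files deposited by the authors hold counts of total exon, unique exon, intron and gene reads. They also hold the authors' TPM, used for levels between genes, and RPKM, which the authors computed per the file headers and which replaced TPM as an alternative. Of the gene IDs 43003 were in RefSeq's GRCm38.p6 table. For 97.4% of these the lower coordinate lay within 5 kb of RefSeq's, which on the minus strand is the gene's end.

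Total exon counts of all genes were fitted per age, with all groups of that age, in edgeR 4.0.16 (R 4.3.3) by TMM scaling, filterByExpr and robust quasi-likelihood F tests. The age contrast used all 32 libraries. Benjamini-Hochberg adjusted p under 0.05 over all genes tested counted as a call, with no fold threshold. The SE of a log2 fold change was derived from it and the F statistic. Groups came from the labels. Replicate pairs differed beyond sampling noise (mean chi-square per gene 2.38 to 16.6 over 48 pairs), so each library counted once. The fit was tested on simulated data.

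Members called anywhere are given by library where the result turns on them, others by range. Of each further list up to 4 genes past the threshold were named by smallest p, and a few more by their function after values were seen. Genes of like pattern are the 10 with the highest correlation to the members' mean (at least 1 CPM). The members, lists, comparisons and alternatives were chosen with earlier results of these data known. The alternatives were DESeq2 1.42.0, RLE scaling, no filter, unique reads, 1.5-fold, Xist (from all gene reads), the 8 samples compared, all 32, each library left out, and a replicate block. The intron share as a covariate was added after seeing the data. Promoters of Cox4i2, Ndufa4l2 and Higd1b were not used here, and 1 gene of the Notch list, Maml2, had no record by that name in the tests.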

Additional observations from a re-analysis of the deposited data

Results flagged for a closer look

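In 80 groups of 4 libraries (10 genes by 8 groups) the highest or lowest library was compared with the rest, its gap to the nearest library being divided by the group's range. In 3 groups this exceeded Dixon's critical value for 4 libraries, where chance gives about 1 in 20, or 4. Cspg4 stood at 50.01 CPM in tamoxifen replicate 3, against 40.7 to 41.6 CPM in the other tamoxifen libraries (0.907 of the range). Without that library Cspg4 fell past the threshold between tamoxifen and saline, at -0.33 (edgeR adjusted p = 0.0237). Cox4i2 stood at 44.0 CPM in tamoxifen replicate 2, against 32.5 to 34.2 CPM in the others (0.851 of the range), and the same library held the lowest Rgs5 level of all 32, 9.71 CPM. Trpc6 stood at 57.9 CPM in untreated replicate 4, against 43.7 to 46.0 CPM in the others (0.842 of the range). That library was also the highest of its group in Notch3 (211 CPM), Cspg4 (48.0 CPM) and Abcc9 (38.9 CPM).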

How the results depend on the processing

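Of 404 values that alternatives gave for the 17 member changes past the threshold, 358 kept direction and call, 46 kept direction only and 0 changed sign. At a fold of at least 1.5 the members called numbered 0 for daily saline against water, scrambled 1 against water and Miglyol against saline, and 1 each for tamoxifen against saline and day 14 against day 6. With all 32 samples in 1 fit they were 0, 0 and, for tamoxifen against Miglyol, 2. With only the 8 samples compared they were 0 in these 3 comparisons. Xist as a covariate gave 0 for scrambled 1 against water. The intron share gave 0 for daily saline against water and Miglyol against saline, 2 for tamoxifen against Miglyol and 3 for tamoxifen against saline. Leaving out 1 library gave 0 to 1 for daily saline against water, scrambled 1 against water and scrambled 1 against scrambled 2, 1 to 4 for Miglyol against saline, 0 to 2 for tamoxifen against Miglyol, 4 to 6 for tamoxifen against saline and 5 to 5 for the ages. Between the ages, Rgs5 and Notch3, which had no call, changed sign: Rgs5 was at -0.58 and Notch3 at -0.24 in untreated against saline lungs, Notch3 was at -0.019 on unique reads, and without 1 library Rgs5 ran from -0.028 to 0.058 and Notch3 from -0.028 to 0.020. The cause was not tested.

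Whether replicate numbers pair the samples is not settled here. Same-numbered libraries had correlations of -0.383 to 0.497 in their deviations from group means. Per comparison, 0 to 2 of 4 libraries correlated best with the library of their own number. The replicate block left 3 of the 4 Miglyol calls, with Abcc9 at an adjusted p of 0.0554 in edgeR, and changed no other member count. It left 461 of the 1498 genes called there in all by number, 565 against 801 for tamoxifen against Miglyol, and 18 against 29 between the scrambled groups. Rgs5, with as few as 101 reads in a library, had the largest SE of the members at day 6 and is the least precise of them.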
